A study of Sus scrofa with 5 samples.

Results

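The genes described here are 7 transcription factor genes of the primitive streak and the early mesoderm, T (the symbol the files use for TBXT), MIXL1, MESP1, TBX6, MSGN1, GSC and FOXF1. They were chosen by name and make up 7 of the 30029 features counted in porcine blastoids and 7 of the 29886 gene symbols measured in porcine embryonic stem cells (pESCs). The primitive streak is the site of the gastrulating embryo where epiblast cells leave the epithelium and become mesoderm and endoderm. Activin/NODAL, WNT and BMP signals open this programme in the pluripotent epiblast. T and MIXL1 mark the streak itself, GSC its anterior end (the organizer), MESP1 the nascent mesoderm that includes heart precursors, TBX6 and MSGN1 the paraxial, presomitic mesoderm, and FOXF1 the lateral plate and extraembryonic mesoderm. A blastocyst precedes gastrulation, so these genes are not markers of its epiblast, hypoblast or trophectoderm.

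pESCs were measured in 3 bulk libraries of cultures in 4FIXY medium, which contains activin A, IGF1, IL-6, its soluble receptor, the WNT pathway inhibitors XAV939 and IWR1, and the ROCK inhibitor Y-27632. Blastoids, which are blastocyst-like structures made from pESCs, were collected on day 6 after culture in iBlastoid medium, manually picked for a cavity and an inner compartment, and sequenced in 2 droplet libraries. The 2-step method of the paper first forms clusters in 4FXY medium, which is 4FIXY without IWR1. Its 1-step method uses iBlastoid medium throughout, and the single-cell methods do not name the one used. The iBlastoid medium holds activin A, BMP4, bFGF, LIF, IGF1, IL-6 and its receptor together with CHIR99021 (a WNT pathway activator), XAV939, SB431542 (a NODAL/activin receptor inhibitor), Y-27632, DZNep and TSA. The pESCs were derived from parthenogenetic blastocysts according to the methods, while 1 of the 3 bulk columns has a name that begins with IVF, and the labels do not say whether the libraries of a kind came from separate cultures, so that p-values measure only the spread between these libraries.

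Barcodes with at least 11223 UMIs (unique molecular identifiers, 1 for each captured RNA molecule) in library 1 and 9805 in library 2 were taken as cells, which gave 7369 and 8175 cells with medians of 29728 and 27588 UMIs. Only 9 cell barcodes occurred in both libraries. Cells with at least 3 UMIs of POU5F1, the core pluripotency factor, and fewer than 3 of COL3A1, a fibrillar collagen of mesenchyme, are called POU5F1 cells (1196 and 1876), and the converse COL3A1 cells (819 and 568). Cells with at least 3 UMIs of both numbered 93 and 71 and had medians of 97897 and 54649 UMIs, and 75.3% and 47.9% of them exceeded 2 times the median UMIs of their library. All remaining cells (5261 and 5660) are called other cells.

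In blastoids the 7 genes split into 4 that were found in over 1% of cells and 3 that were nearly or wholly undetected. MESP1 had a UMI in 1170 of 7369 cells (15.9%, exact 95% interval 15.0 to 16.7%) of library 1 and in 1222 of 8175 cells (14.9%, 14.2 to 15.7%) of library 2. TBX6 was found in 513 (6.96%) and 504 (6.17%) cells, FOXF1 in 269 (3.65%) and 254 (3.11%), and GSC in 127 (1.72%) and 178 (2.18%). T was found in 10 (0.136%) and 8 (0.0979%) cells and MIXL1 in 9 (0.122%) and 5 (0.0612%). MSGN1 had 0 UMIs in either library, which allows a share of up to 0.0407% and 0.0367% of cells with a UMI. The libraries gave the same order of the 7 genes. These intervals and limits cover counting error only. After each cell was thinned to 9805 UMIs, the shares were 5.22% and 5.17% for MESP1, 2.17% and 1.96% for TBX6, 1.27% and 1.14% for FOXF1, and 0.476% and 0.673% for GSC, so the order held and GSC lay below 1%.

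**Figure D1:**
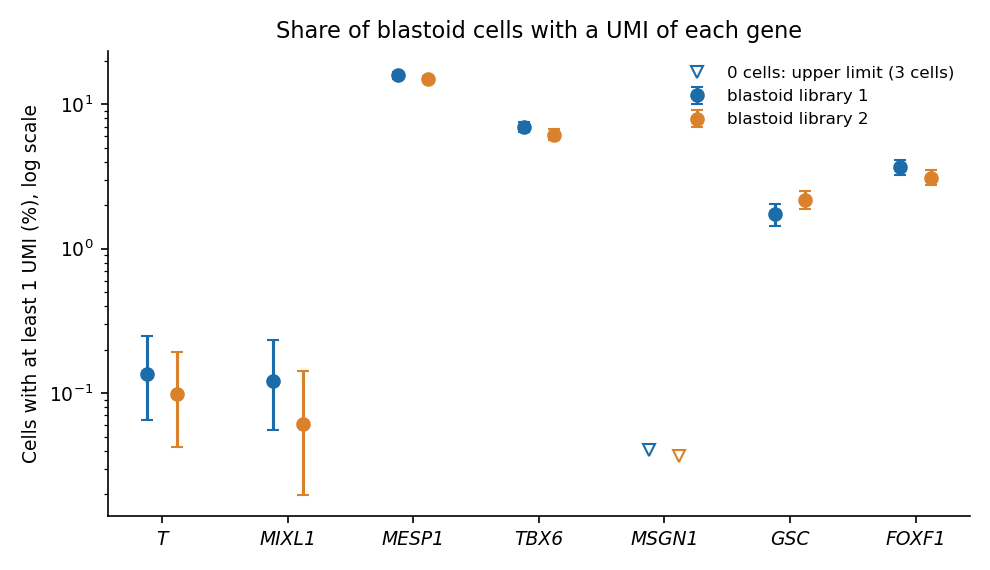
Share of cells with at least 1 UMI of each gene in blastoid libraries 1 and 2, on a log scale, with exact 95% binomial intervals. MESP1 lay near 15% and TBX6 near 6% of cells in both libraries, T and MIXL1 near 0.1%, and the open triangles give the limit that 0 cells allow for MSGN1 (0.0407% and 0.0367%).

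Few cells held more than 1 UMI of any of these genes, and the highest count in a single cell was 6, of FOXF1. At least 2 UMIs were seen in 175 and 163 cells for MESP1, in 22 and 28 for TBX6, in 34 and 29 for FOXF1, in 16 and 24 for GSC, in 2 and 0 for T, and in none for MIXL1. Only MESP1 stayed above 1% of cells when 2 UMIs were required. Positive cells were deeper than the rest: the median cell with a GSC UMI had 42953 and 39780.5 UMIs.

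Barcodes with 10 to 100 UMIs, which hold mostly free RNA, show its make-up. They do not show how much free RNA a cell holds, which was not estimated. There were 118122 and 165131 of them, with 1639823 and 2344239 UMIs in all, against medians of 29728 and 27588 UMIs in a cell. Levels are given as counts-per-million (CPM), the UMIs of a gene scaled by all UMIs of the same cells. MESP1 stood at 9.76 and 9.81 CPM there (16 and 23 UMIs, exact intervals 5.58 to 15.8 and 6.22 to 14.7) against 5.39 and 5.31 in cells. TBX6 stood at 2.44 and 1.71 CPM there (4 UMIs in each library) against 2.11 and 2.01 in cells. With the free RNA of a cell not estimated, shares for MESP1 or TBX6 are not read as shares of expressing cells. GSC stood at 1.22 and 1.71 CPM in these barcodes on 2 and 4 UMIs against 0.606 and 0.804 in cells, and FOXF1 at 0.610 and 0.427 on 1 UMI each against 1.22 and 1.12 in cells. T, MIXL1 and MSGN1 had 0 UMIs there, which allows up to 1.83 and 1.28 CPM in free RNA. The part of free RNA in the few T and MIXL1 cells was not tested.

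T (Brachyury) is the T-box factor of the streak, and its pig gene lies on chromosome 1 (2717165 to 2725561, plus strand, Sscrofa11.1). Of the 10 T-positive cells of library 1, 2 were POU5F1 cells, 1 held both genes and 7 were other cells. Of the 8 in library 2, 1 was a POU5F1 cell and 7 were other cells. No T-positive cell was a COL3A1 cell in either library, which at 819 and 568 such cells allows up to 0.366% and 0.528%. At a minimum of 1 UMI, 6 of 10 and 3 of 8 T-positive cells held POU5F1, which 39.6% and 48.4% of all cells did, and 2 of 10 and 0 of 8 held COL3A1, which 32.9% and 19.7% of all cells did. Over the marker sets, T was highest in cells with at least 3 UMIs of MYL7 or of CRABP1 (means of 0.149 and 0.123 CPM), where these values rest on 2 to 6 positive cells a library.

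MIXL1, the Mix-like homeobox factor induced in the streak by NODAL (chromosome 10, 14102273 to 14105544, plus strand), was found in 14 cells in all. COL3A1 cells held 4 of the 9 MIXL1-positive cells of library 1 and 1 of the 5 in library 2, where COL3A1 cells were 819 of 7369 and 568 of 8175 cells. POU5F1 cells held 1 of 9 and 2 of 5. The intervals of these shares are wide (13.7 to 78.8% for 4 of 9), and no order is read from them. No cell held both T and MIXL1.

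MSGN1, the mesogenin factor of presomitic mesoderm (chromosome 3, 120033980 to 120034624, minus strand), was the only member listed at 0 in all 5 libraries. Its annotated transcript is a single exon of 645 bases that are all coding, without a 3′ UTR. Reads from an RNA end beyond this model would not have been counted in 3′ droplet libraries, and how far this affected its count was not tested.

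MESP1 and TBX6 were found in every cell class, and no class passed the test against another for either gene. MESP1, the bHLH factor of nascent mesoderm (chromosome 7, 55322016 to 55327600, minus strand), was at 6.21 and 5.44 CPM in POU5F1 cells, 5.79 and 5.04 in COL3A1 cells, and 5.02 and 5.20 in other cells. Its only annotated transcript has 5302 bases, of which 771 are coding and 271 are 3′ UTR, so most of it lies before the coding sequence. RNA from that stretch would be counted as MESP1, and how far this affected its levels was not tested. TBX6, the T-box factor of paraxial mesoderm (chromosome 3, 18271983 to 18277864, minus strand), was at 1.96 and 1.97 in POU5F1 cells, 1.81 and 1.93 in COL3A1 cells, and 2.201 and 1.994 in other cells. Over the sets of cells with at least 3 UMIs of a lineage marker, leaving aside SOX10 and SOX17 with 49 and 23 cells in all, the mean level of MESP1 ran from 4.44 CPM (TP63) to 6.59 (CRABP1), and that of TBX6 from 1.70 (DNMT3B) to 2.39 (MYL7). In the small sets MESP1 reached 9.23 (SOX10) and TBX6 7.28 (SOX17). Their raw shares were higher in POU5F1 cells (22.7% and 18.8% for MESP1) than in COL3A1 cells (14.7% and 11.8%), but POU5F1 cells also had more UMIs (medians of 40454.5 and 37305.5 against 24442 and 20557.5), and after thinning the shares were 6.02% and 5.46% against 5.78% and 4.89%. The genes most like MESP1, by the ratio of their CPM between positive and all other cells, had ratios of at most 1.71 and 1.51 (CYP26A1, a retinoic acid hydroxylase, followed by LOC100155738, KCNQ3, LOC100739552 and SEMA5B), and those most like TBX6 had ratios of at most 1.30 (FNDC1) and 1.32 (CXCL2, a chemokine). FNDC1 ranked first for TBX6, followed by UBE2C, CXCL2, MKI67 and CENPL, of which UBE2C and MKI67 mark dividing cells.

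GSC and FOXF1 behaved otherwise, and the sequences before their annotated starts are shown because they were the members that differed between classes. Each run is the 250 bases upstream of the RefSeq gene start on the minus strand of Sscrofa11.1, printed 5′ to 3′, at chr7:116101154-116101403 for GSC and chr6:2598123-2598372 for FOXF1.
GSC: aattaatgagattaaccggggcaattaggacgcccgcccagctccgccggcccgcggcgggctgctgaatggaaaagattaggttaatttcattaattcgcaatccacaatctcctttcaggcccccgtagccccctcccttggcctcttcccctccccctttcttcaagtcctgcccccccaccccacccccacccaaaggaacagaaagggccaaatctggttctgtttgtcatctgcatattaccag
FOXF1: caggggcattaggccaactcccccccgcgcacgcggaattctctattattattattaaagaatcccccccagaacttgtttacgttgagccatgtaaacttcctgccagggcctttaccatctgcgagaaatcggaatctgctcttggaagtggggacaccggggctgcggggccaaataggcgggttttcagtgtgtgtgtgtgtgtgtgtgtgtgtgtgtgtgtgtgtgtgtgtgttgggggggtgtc
Neither window held CTTTGA (the core read by LEF/TCF factors of the WNT pathway) or CAGACA (a SMAD element) on either strand, which is why no capitals appear. The windows of T, MIXL1 and MESP1 held neither motif as well, that of MSGN1 held CTTTGA, and that of TBX6, where the neighbouring gene YPEL3 ends 134 bases upstream, held both. Of 19559 gene windows of this length, 10.7% held CTTTGA and 12.8% CAGACA.

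GSC, the organizer homeobox factor (chromosome 7, 116099053 to 116101153, with 85 bases shared with the antisense gene LOC106504549), was most abundant in POU5F1 cells. There it had 83 and 124 UMIs, or 1.54 and 1.60 CPM, against 0.328 and 0.276 in COL3A1 cells (8 and 4 UMIs) and 0.307 and 0.463 in other cells. Every value in POU5F1 cells lay above every value in COL3A1 cells and in other cells. Cells with at least 3 UMIs of both POU5F1 and COL3A1 were at 1.29 and 1.59 CPM, which was not apart from POU5F1 cells. The share of all genes that separate in this way was not counted. The level in POU5F1 cells was not above that of the near-empty barcodes (1.22 and 1.71 CPM, intervals 0.148 to 4.41 and 0.465 to 4.37). How much of a cell's UMIs was free RNA was not estimated. The share of cells with a GSC UMI is therefore read only between classes of the same libraries, not as a share of expressing cells. Of its positive cells, 63 of 127 (49.6%) and 95 of 178 (53.4%) were POU5F1 cells, which made up 16.2% and 22.9% of all cells. POU5F1 cells with a GSC UMI were still a small minority, 5.27% and 5.06%, or 1.34% and 1.42% after thinning.

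The share was highest in cells with the most POU5F1. It was 0.585% and 1.19% in cells without a POU5F1 UMI, 1.78% and 1.39% at 1 to 2 UMIs, 2.69% and 2.87% at 3 to 9, and 10.0% and 8.41% at 10 or more. In cells thinned to the same depth the ends of this range were 0.195% and 0.453% against 2.47% and 2.42%, so the step at 10 or more UMIs was present at equal depth as well. In library 2 the first 2 bins did not differ beyond their intervals. Among POU5F1 cells, in a division chosen after the values were seen, those with at least 3 UMIs of DNMT3B, the de novo DNA methyltransferase high in pluripotent cells, were at 2.45 and 2.38 CPM of GSC (437 and 813 cells). The remainder were at 0.886 and 0.902 (759 and 1063 cells). POU5F1 cells with under 3 UMIs of GATA3, a trophectoderm and amnion factor, were at 2.62 and 2.76 (386 and 752 cells). The remainder were at 1.11 and 0.996 (810 and 1124 cells). Most POU5F1 cells thus held at least 3 UMIs of GATA3, and values of the class are not those of pluripotent cells alone.

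Genes whose level most resembled that of GSC over cells were ranked by the ratio of their CPM between GSC-positive cells (127 and 178) and all other cells, with 1 added to each. The 5 highest were TGFA, NANOG, UPP1, CXCL13 and CAV1. NANOG, a pluripotency homeobox factor, stood at 5.66 and 8.64 CPM in GSC-positive cells and at 0.594 and 1.03 in the others, a ratio of at least 4.18 in each library. TGFA, an EGF receptor ligand, stood at 36.5 and 40.0 against 5.05 and 6.97.

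FOXF1, the forkhead factor of lateral plate mesoderm (chromosome 6, 2579348 to 2598122, minus strand), was most abundant in COL3A1 cells. There it had 122 and 98 UMIs, or 5.01 and 6.77 CPM, against 0.370 and 0.503 in POU5F1 cells and 0.908 in other cells of each library. The values of these classes did not overlap, and cells with at least 3 UMIs of both POU5F1 and COL3A1 were at 1.82 and 1.81. The share of all genes that separate in this way was not counted. A FOXF1 UMI was found in 11.7% and 11.6% of COL3A1 cells, 1.42% and 2.03% of POU5F1 cells and 2.74% and 2.53% of other cells, and after thinning in 4.94% and 6.45% of COL3A1 cells against 0.283% and 0.473% of POU5F1 cells. Of the FOXF1-positive cells, 144 of 269 (53.5%) and 143 of 254 (56.3%) were other cells, which made up 71.4% and 69.2% of all cells. The level in COL3A1 cells lay above the exact intervals of the near-empty barcodes (0.0154 to 3.40 and 0.0108 to 2.38 CPM). Those of other cells and POU5F1 cells lay within them. A level within these intervals does not show that the UMIs were free RNA. How many positive cells of these 2 classes expressed FOXF1 was not tested. The annotated FOXF1 model carries a 3′ UTR of 14910 bases, and 14448 bases of the gene overlap MTHFSD on the opposite strand. No source used here states the strand setting of the counting in blastoids or pESCs. Whether reads of MTHFSD were counted as FOXF1 was not tested.

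The FOXF1 share was lowest in cells without COL3A1, at 2.204% and 2.315%, and went through 6.39% and 6.40% at 3 to 9 UMIs, to 17.1% and 15.3% at 30 or more. No test was run across the bins. After thinning it was 0.753% and 0.686% at 0 UMIs, 3.89% and 7.73% at 10 to 29, and 6.85% and 7.096% at 30 or more, so that in library 2 the last bin was not the highest. Among COL3A1 cells, in divisions chosen after the values were seen, 13.4% and 10.5% of those with at least 3 UMIs of MYL7, an atrial myosin light chain, were FOXF1-positive, and 10.7% and 12.2% of the remainder. After thinning these shares were 4.84% and 5.93% against 5.01% and 6.71%. With GATA6, a factor of hypoblast and heart, the values were 15.7% and 12.4% against 5.95% and 10.5%, and after thinning 6.38% and 6.19% against 2.87% and 6.83%, so the libraries differed in direction at equal depth. The 5 genes most like FOXF1 by the same ranking (269 and 254 positive cells) were DCN, HOXB6, NID2, LOC102167255 and HOXB8. DCN, a small proteoglycan of connective tissue, was at 150.5 and 77.7 CPM in FOXF1-positive cells against 24.5 and 14.3, and HOXB6, a trunk homeobox gene, at 16.4 and 11.2 against 2.15 and 1.57. NID2, which the paper names as a hypoblast gene specific to its hypoblast-like cells, was at 56.6 and 38.1 against 9.70 and 7.89. It was found in 44.2% and 38.2% of FOXF1-positive cells, and DCN in 35.3% and 22.4%.

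**Figure D2:**
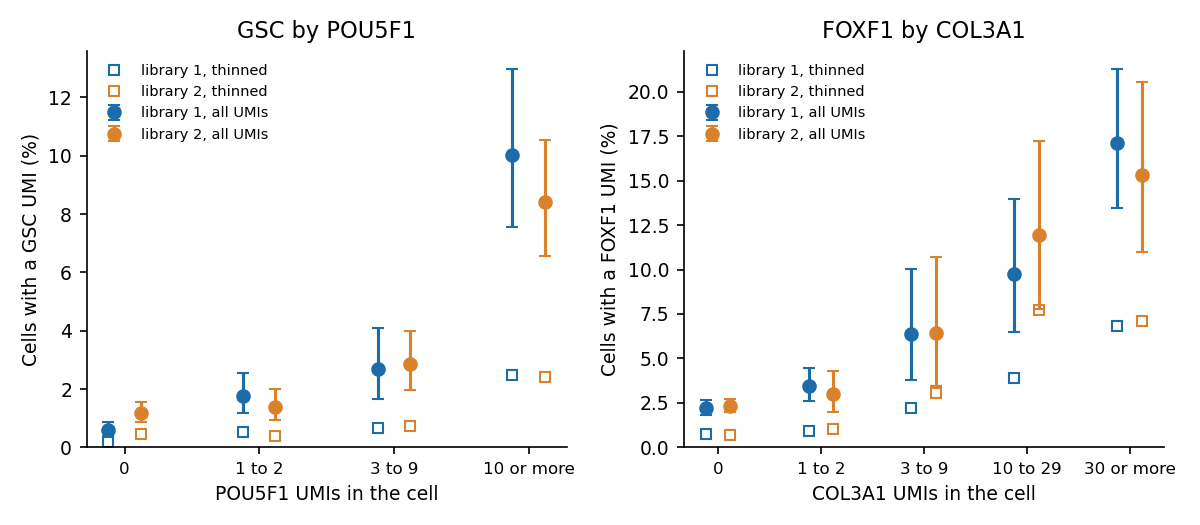
Share of cells with a GSC UMI by POU5F1 UMIs in the cell (left) and with a FOXF1 UMI by COL3A1 UMIs (right), in libraries 1 and 2. Filled circles use all UMIs with exact 95% intervals and open squares cells thinned to 9805 UMIs. Over all UMIs both shares were highest in the last bin, at 10.0% and 8.41% for GSC and 17.1% and 15.3% for FOXF1, while the thinned FOXF1 share of library 2 was higher at 10 to 29 UMIs (7.73%) than at 30 or more (7.096%).

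GSC and FOXF1 were found together in 4 and 9 cells, which is 3.15% and 5.06% of the GSC-positive cells, where FOXF1 was found in 3.65% and 3.11% of all cells. Overall 5482 (74.4%) and 6210 (76.0%) cells held none of the 7 genes, 189 and 178 held 2 of them, 11 and 14 held 3, and none held 4. The most frequent pair was MESP1 with TBX6, in 100 and 92 cells. The cells with 2 of the genes were deep, with medians of 45116 and 43143.5 UMIs.

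To ask which members differ between the classes, UMIs were summed for each library and class and compared over all genes by quasi-likelihood in edgeR. Of the 7 members, 4 passed the filter on low counts, and T, MIXL1 and MSGN1 did not. Between COL3A1 and POU5F1 cells, 1 member was higher and 1 lower in COL3A1 cells, where 26.5% of the 18372 tested genes were higher and 24.7% lower. FOXF1 was higher by 3.81 on the log2 scale (SE 0.25, n = 2 libraries, edgeR with Benjamini-Hochberg adjusted p = 4.68e-07). GSC fell by 2.24 (SE 0.38, edgeR adjusted p = 0.000573). With classes set at 1 UMI the difference of FOXF1 was 2.71, and with classes at 10 UMIs it was 4.35. MESP1 differed by 0.02 (SE 0.14, adjusted p = 0.927) and TBX6 by 0.02 (SE 0.21, adjusted p = 0.954), neither of which passed the edgeR test. Without the filter, MIXL1 was at 2.48 (SE 1.03, edgeR adjusted p = 0.1001) on 14 UMIs in all cells, and it was not called.

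Against other cells, 1 member was higher in COL3A1 cells and none lower, beside 20.2% and 18.1% of all tested genes. This was FOXF1, by 2.73 (SE 0.21, edgeR adjusted p = 2.96e-06), while GSC stood at -0.27 (SE 0.43, adjusted p = 0.667). With classes at 1 UMI the difference of FOXF1 was 1.81, still past the threshold. In POU5F1 cells against other cells, 1 member was higher and 1 lower, beside 19.3% and 20.2% of all tested genes. GSC was higher by 1.97 (SE 0.25, edgeR adjusted p = 0.000141), or by 1.36 and 2.70 with classes at 1 and 10 UMIs, and FOXF1 fell by 1.08 (SE 0.25, edgeR adjusted p = 0.00573). With 18.1% to 26.5% of all genes called in each direction, a call by itself does not set these members apart from other genes. The 3 comparisons share classes and are not independent of each other.

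**Figure D3:**
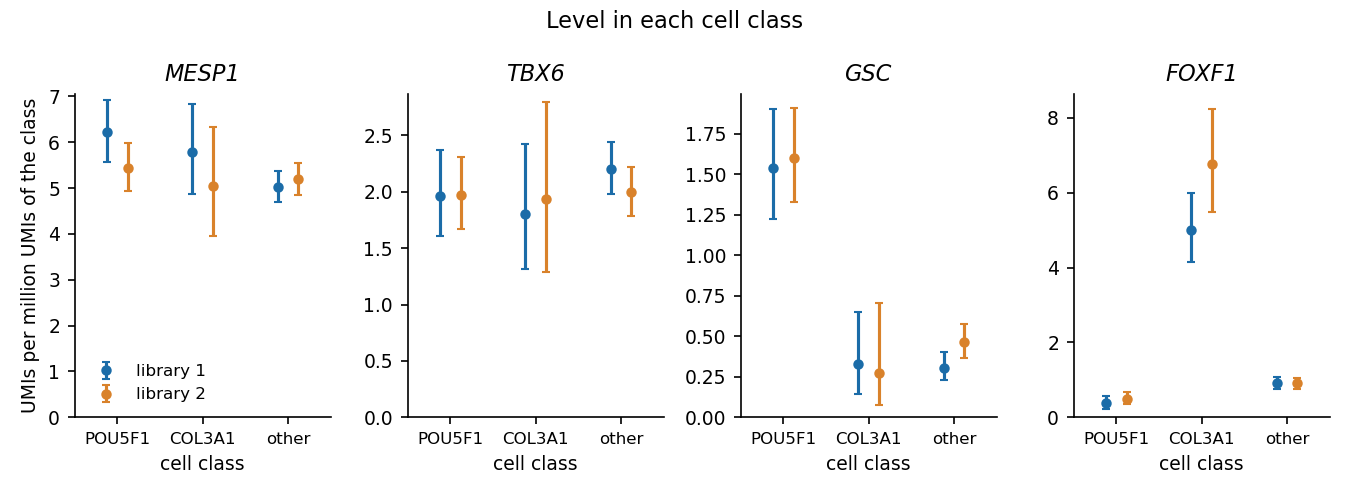
CPM of MESP1, TBX6, GSC and FOXF1 in POU5F1, COL3A1 and other cells, 1 point for each library, with exact 95% Poisson intervals that cover counting error only. MESP1 and TBX6 passed no test between the classes, GSC was highest in POU5F1 cells (1.54 and 1.60) and FOXF1 in COL3A1 cells (5.01 and 6.77).

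Other genes of the programme were read from 3 lists. Of 20 lateral plate and mesenchyme genes, 20 were higher in COL3A1 than in POU5F1 cells, beside 26.5% of all tested genes, with a median of 4.02 on the log2 scale against 0.0029 over all tested genes. The largest of these were TWIST1, a bHLH factor of mesenchyme (8.97 and 5.34 CPM in POU5F1 cells, 455 and 502 in COL3A1 cells, log2 6.20, SE 0.35, edgeR adjusted p = 1.70e-07), PRRX1, a homeobox factor of limb and lateral mesenchyme (log2 6.11), HAND2 (log2 5.92) and TBX5 (log2 5.52), both factors of heart and forelimb. HAND1, which marks extraembryonic and lateral mesoderm, was at 34.4 and 30.4 against 589 and 578. Against other cells, 18 of the 20 were higher in COL3A1 cells (median 3.36, beside 20.2% of all tested genes), and in POU5F1 cells 2 were higher and 14 lower than in other cells (median -1.14, beside 19.3% and 20.2%). FOXF1, at 3.81, lay near the median of this list in the first comparison. COL3A1 cells were picked by a collagen of mesenchyme, and the lists were chosen with earlier results known. The counts of this list are therefore no independent evidence of a cell type. It also holds GATA4 and GATA6, by which the paper names its hypoblast-like cells.

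Of the 16 streak and organizer genes, 13 were tested, and 6 were higher and 4 lower in COL3A1 than in POU5F1 cells, beside 26.5% and 24.7% of all tested genes, with a median of 0.45. Higher in POU5F1 cells, like GSC, were TDGF1, the NODAL co-receptor (4.46 and 6.17 CPM against 0.575 and 0.138, log2 fell by 3.61, SE 0.61, edgeR adjusted p = 0.000556), NODAL itself (1.02 and 1.43 against 0.205 and 0.207), WNT8A and FGF4. The class was picked by POU5F1, and the paper counts NODAL among its primed pluripotency markers. Higher levels of these genes in POU5F1 cells are therefore no evidence of a streak programme. FGF4 had 29 UMIs in POU5F1 cells and 0 in COL3A1 cells, so it was at least 2.85-fold lower there, with the floor of 3 UMIs set over both libraries. WNT8A had 56 UMIs against 1, a ratio of 16.5 with a counting interval of 2.85 to 664. NODAL, WNT8A and FGF4 passed the filter on low counts only through cells with at least 3 POU5F1 UMIs. They could thus be called only as higher in POU5F1 cells, against COL3A1 and other cells alike. Their part in the counts of this list is no support. Higher in COL3A1 cells were SP5, a WNT target (6.61 and 6.70 CPM against 0.166 and 0.400, log2 4.57, SE 0.32, edgeR adjusted p = 8.70e-07), SNAI1, which drives the epithelial to mesenchymal transition (29.2 and 28.9 against 7.99 and 8.45), EOMES, a T-box factor of the streak (7.23 and 8.29 against 3.70 and 4.88), LHX1, NOG and CER1. Against other cells 4 of the 13 were higher and 1 lower in COL3A1 cells, beside 20.2% and 18.1% of all tested genes, and 5 were higher and 3 lower in POU5F1 cells, beside 19.3% and 20.2%. FGF8 was among the lower genes of both, at 17.6 and 21.9 CPM in other cells. It was at 5.05 and 5.67 in POU5F1 cells and 4.97 in COL3A1 cells of each library.

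Of 16 paraxial and presomitic genes, 15 were tested, and 4 were higher and 9 lower in COL3A1 than in POU5F1 cells (median -0.85), beside the same 26.5% and 24.7%, so that the number of higher genes was near the background. CDX4, a caudal homeobox factor, had 177 UMIs in POU5F1 cells and 1 in COL3A1 cells, a ratio of 52.2 with a counting interval of 9.25 to 2074. It too passed the filter only through cells with at least 3 POU5F1 UMIs and could be called only in this direction. RSPO3, a secreted enhancer of WNT signalling, was at 12.3 and 16.6 CPM in COL3A1 cells against 0.740 and 0.619 (log2 4.52, SE 0.34, edgeR adjusted p = 1.40e-06), MEOX1, a somite homeobox factor, at 1.03 and 1.10 against 0.0555 and 0.103, and CDX2, which also marks trophectoderm, at 3.33 and 5.18 against 0.999 and 0.992. MESP2, the paralog of MESP1, fell by 1.27 on the log2 scale (edgeR adjusted p = 0.00112), from 2.85 and 2.51 in POU5F1 cells to 1.07 and 0.967. In COL3A1 cells 3 were higher and 6 lower than in other cells, beside 20.2% and 18.1% of all tested genes, and in POU5F1 cells 6 were higher and 7 lower, beside 19.3% and 20.2%. PAX3 was among the lower genes of both, at 9.66 and 12.6 CPM in other cells. It was at 5.49 and 6.55 in POU5F1 cells and 1.48 and 2.14 in COL3A1 cells.

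**Figure D4:**
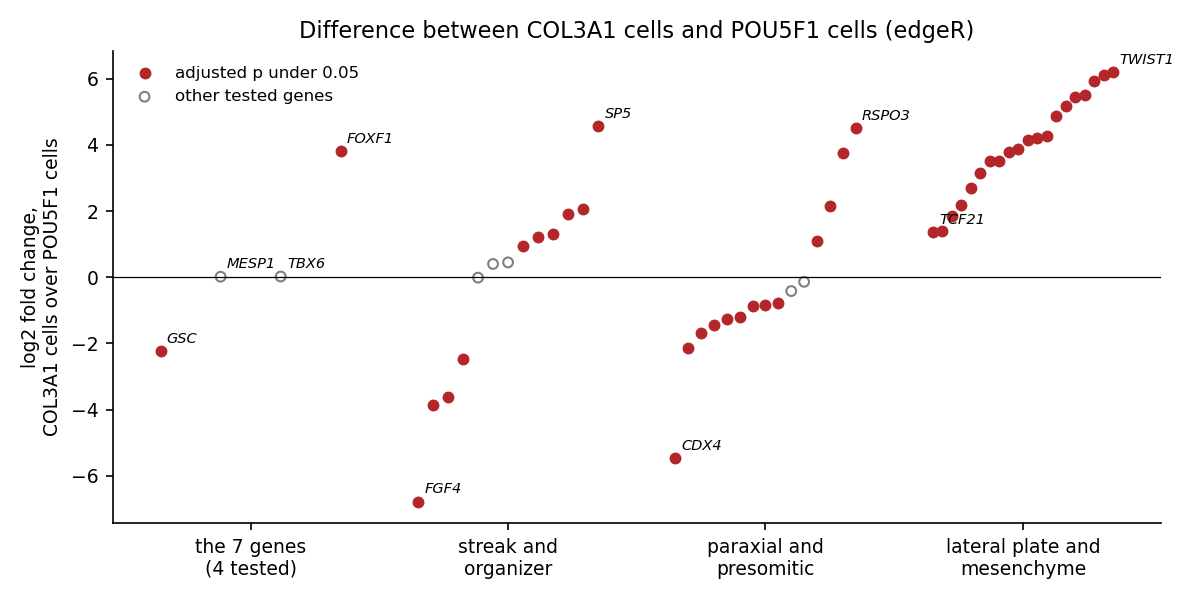
Log2 fold change of COL3A1 over POU5F1 cells for the 4 tested members and for the genes of 3 lists (edgeR, filled where the adjusted p was under 0.05). FOXF1 (3.81) sits among the 20 lateral plate genes, and GSC (-2.24) on the side of TDGF1 and of NODAL, a primed pluripotency marker in the paper. FGF4, which had 0 UMIs in COL3A1 cells, has a fitted value that is no bound.

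In pESCs the level of the 7 genes was read from FPKM, fragments scaled by transcript length and library size, added up over the transcripts of a symbol. T stood at 4.41 in the library IVFP25, 3.09 in PA_4P7 and 40.6 in PAP25 (mean 16.0 ± 21.3 FPKM, SD, n = 3). The PAP25 value was 9.21 times the next, and without PAP25 the mean was 3.75. GSC stood at 2.11, 3.58 and 4.90 (mean 3.53 ± 1.40) and TBX6 at 2.16, 1.17 and 2.77 (mean 2.03 ± 0.81). MESP1 (0.328, 0.182 and 0.358), MIXL1 (0, 0.637 and 0.222) and FOXF1 (0.180, 0.101 and 0.673) lay below 1 FPKM in every library, and MSGN1 was listed at 0 in all 3. By mean level the order was T, GSC, TBX6, FOXF1, MESP1, MIXL1 and MSGN1. The range of GSC overlapped those of T and TBX6, which did not overlap each other, and the ranges of FOXF1, MESP1 and MIXL1 overlapped. For comparison, POU5F1 stood at 639, 506 and 432 FPKM.

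Among the genes above 0 in each library, T ranked above 55.9%, 49.4% and 91.6% of them, and GSC above 45.8%, 51.6% and 56.3%. All reads of T were assigned to 1 of its 2 transcripts. For TBX6, which has 6 transcripts, 1 transcript led in IVFP25 and PA_4P7 and another in PAP25.

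The high T value of PAP25 was accompanied by other genes. Of 11720 genes with a mean of at least 1 FPKM, 1.94% (227) were at least 2 times as high in PAP25 as in the higher of the other libraries, and 19, T included, reached the ratio of T. This comparison was chosen after the values were seen, rests on a single library a side and has no test. Of the members with a mean of at least 1 FPKM, 1 of 3 passed this mark. Of the streak and organizer list 6 of 11 did: CHRD, the BMP antagonist of the organizer (19.4, 19.4 and 130 FPKM in IVFP25, PA_4P7 and PAP25), FOXA2, a factor of anterior streak and endoderm (13.2, 15.5 and 81.8), LHX1 (0.586, 0.790 and 12.9), SP5 (1.90, 1.06 and 12.4), CER1 (0.830, 4.85 and 14.2) and EOMES (3.10, 5.04 and 10.9). LEFTY2, a NODAL inhibitor, was instead highest in PA_4P7 (7.16, 64.8 and 7.01). GSC was highest in PAP25 but by only 1.37 times the next.

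Of 14 lineage markers, 9 had a mean of at least 1 FPKM and 4 of them were at least 2 times as high in PAP25: SOX17, an endoderm factor (1.73, 1.82 and 26.1 FPKM), GATA4 (0.234, 0.252 and 5.99), GATA6 (0.301, 0.264 and 2.64) and GATA3 (0.339, 0.122 and 3.97). COL3A1 was at 0.0159, 0 and 0.0182. In a bulk culture a larger share of cells of a type and more RNA in each of them cannot be told apart, and the part of these cells in the T value was not tested. Of the paraxial genes with a mean of at least 1 FPKM, 0 of 5 reached 2 times the next library in PAP25.

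**Figure D5:**
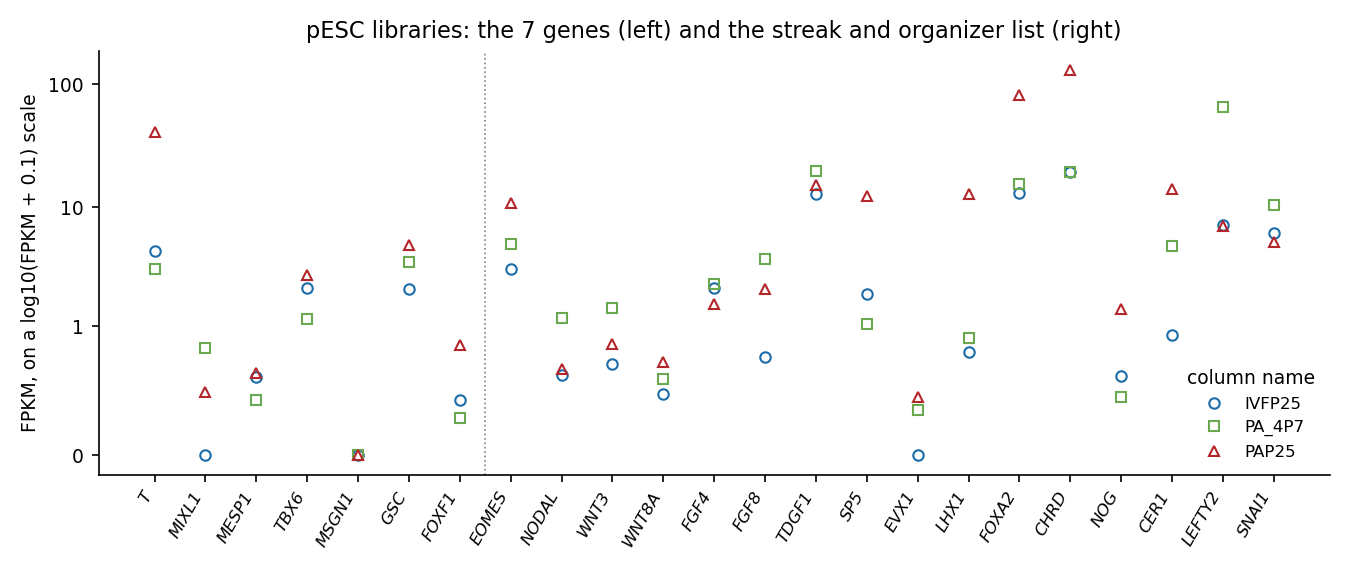
FPKM of the 7 genes and of the 16 streak and organizer genes in the 3 pESC libraries, on a log10(FPKM + 0.1) scale labelled in FPKM, 1 symbol for each column. T, SP5, LHX1, FOXA2 and CHRD lay far higher in PAP25 than in the other 2 libraries, and GSC did not.

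FPKM and CPM differ in scale and assay, so pESCs and blastoids are set side by side only. T was above 3 FPKM in each pESC library and was found in 18 of 15544 blastoid cells. FOXA2, at 13.2 to 81.8 FPKM in pESCs, did not pass the filter on low counts in blastoids and was at 0.0555 and 0.0387 CPM in POU5F1 cells. FOXF1, whose longest annotated transcript has 17411 bases, was below 1 FPKM in pESCs and was found in 3.65% and 3.11% of all blastoid cells and in 11.7% and 11.6% of the COL3A1 cells, while COL3A1 itself was at most 0.0182 FPKM in pESCs.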

How the data were processed

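Total RNA of pESCs (3 libraries) and single cells of day 6 blastoids (2 libraries) were sequenced by the authors. For pESCs, the submitters' processing notes name Trim Galore 0.6.4, HISAT2 2.2.1 and StringTie 2.2.1 with susScr11, and the deposited unit is FPKM for each of 81391 RefSeq transcripts. The 3 columns (IVFP25, PA_4P7, PAP25) were used as unnumbered replicates, and their depth is unknown. For blastoids, the deposited values are raw UMI counts of every barcode from Cell Ranger 7.1.0 on susScr11. Doublets were not called. Cells above 2 times the median UMIs were left out in an alternative. Coordinates, transcript models and upstream bases come from the RefSeq annotation of Sscrofa11.1 (susScr11).

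FPKM were added up by symbol (29886) and not tested. UMIs were summed per library and class (8 sums of 4408127 to 168509407 UMIs), filtered with filterByExpr, normalized by TMM and compared in 1 quasi-likelihood fit in edgeR 4.0.16 (R 4.3.3), with Benjamini-Hochberg adjustment over 18372 genes and a threshold of 0.05. In simulated sums for COL3A1 against POU5F1 cells over 17959 genes, 88 of 111 genes changed 2-fold and 88 of 89 changed 4-fold were recovered, with 9 false calls. The simulated spread was fixed and not taken from the data, the classes were otherwise alike, and libraries were independent. In the data 9402 of 18372 genes were called, so these figures check the procedure and do not carry over to it. The sums of a library deviated together (correlations of 0.107 to 0.491 over all genes), so library was used as a block in an alternative. All classes of a library share its preparation, and the source of these correlations was not tested. Further alternatives were DESeq2 1.42.0, no filter, other class limits, other cell filters, thinning and leaving out a library. The text names all 7 members, and the 5 genes most like each member with at least 30 positive cells in each library and a UMI in at least 10% of them. For each list it names the called genes of largest change between COL3A1 and POU5F1 cells, as well as some chosen after their values were seen. Against other cells not all such genes are named. The members and lists were chosen with earlier results of these data known.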

Additional observations from a re-analysis of the deposited data

How the results depend on the processing

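FOXF1 stayed higher and GSC lower in COL3A1 than in POU5F1 cells under all 10 alternatives, of which the 2 that leave out a library have no test. With classes at 1 and at 10 UMIs FOXF1 was at 2.71 and 4.35 and GSC at -2.55 and -2.76, and without cells of very high UMIs they were at 4.24 and -1.87. With classes at 1 UMI GSC was at -1.19 between COL3A1 and other cells in place of -0.27, and was not called. With library as a replicate block the values were 3.82 and -2.19, with 10346, 8205 and 9140 genes called in the 3 comparisons in place of 9402, 7034 and 7249, and the block changed no call of a member. Leaving out a library gave 3.83 to 3.87 for FOXF1 and -2.44 to -2.10 for GSC, as values with no test, since no residual degrees of freedom remain. With classes at 1 UMI, 3862 genes in place of 7034 were called between COL3A1 and other cells. Differences near 0 changed sign: between COL3A1 and POU5F1 cells MESP1 was at -0.032 without cells of very high UMIs and -0.011 without cells of high mitochondrial share, and TBX6 at -0.16 with classes at 1 UMI and -0.12 without cells of very high UMIs. Leaving out a library gave -0.026 to 0.016 for MESP1 there, and, between COL3A1 and other cells, -0.0022 to 0.27 for MESP1 and -0.70 to 0.16 for GSC. None of these differences passed the test with both libraries.

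From 2 UMIs, 1 gene in place of 4 was found in at least 1% of cells. The share of FOXF1-positive cells that were COL3A1 cells (30.8%) was 41.3% after thinning and 60.4% from 2 UMIs, and 26.0 to 35.7% by library. That of GSC-positive cells that were POU5F1 cells (51.5%) was 47.1% after thinning, 71.9% from 2 UMIs, 46.2% without cells of very high UMIs, and 49.6 to 53.4% by library. The mean of T in pESCs (16.0 FPKM) was 39.7 when each library was rescaled to the same total, as TPM are, and 3.75 to 22.5 when a library was left out, the lowest without PAP25. The few UMIs of T, MIXL1 and MSGN1 (20, 14 and 0) limit what can be said of them, and with 2 libraries the spread is known only roughly.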
